A study of Mus musculus with 4 samples.

Results

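Gata6, Gata4, Sox17, Sox7, Foxa2, Foxq1 and Hnf4a, which encode transcription factors of the primitive endoderm, were read together with Pdgfra, which encodes a receptor, and Dab2, which encodes an endocytic adaptor, in 4 mouse embryonic stem (ES) cell lines. All probes outside the controls whose RefSeq transcript belongs to one of these genes were taken, which gave 11 probes on 20 spots for 9 of the 20257 named genes on the array. The genes were selected on known roles in primitive endoderm and with their signals in these 4 lines already known. Their own values are therefore a description, and no test is given for them.

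RNA was measured once per line on one-colour arrays that share a slide and a scan. Parental ES is the EB3 line from which the other lines were made, without the constructs named below. Nup98-HoxA9 ES clones #1 and #9 are independent stable clones of EB3 that express the leukemic fusion of the N-terminal, FG repeat part of human Nup98 with the C-terminus of HoxA9. HoxA9-Ct ES is 1 stable clone of EB3 that expresses the HoxA9 C-terminus alone, with the homeodomain and without the Nup98 part. The transgenes were brought in with a Tol2 transposon vector and hygromycin B selection. All 4 lines were grown on gelatin with LIF. Every group other than Nup98-HoxA9 ES is 1 culture, each transgenic line is 1 picked clone, and construct and clone cannot be told apart in HoxA9-Ct ES.

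The primitive endoderm is the layer that lies between the epiblast and the cavity of the blastocyst and later forms the extraembryonic yolk sac endoderm. GATA6 is required for its formation, is opposed by NANOG in the cells that become epiblast, and acts upstream of GATA4, SOX17 and SOX7, while FGF4 signalling through ERK favours this fate. ES cultures in serum and LIF are known to hold a small and changing fraction of cells with primitive endoderm gene expression, and forced expression of Gata6 or Gata4 turns ES cells into endoderm-like cells.

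RefSeq promoter windows (build GRCm38.p6), from 250 bases before to 50 bases after a transcript start, were listed for 4 of the 9 genes, with 3 windows for Foxa2, 2 for Hnf4a, 2 for Dab2 and 1 for Pdgfra. They were searched on both strands for AGATAA and TGATAA, the core letters bound by GATA factors, for AACAAT, bound by SOX factors, and for TTTATGG, bound by HoxA9. None of these motifs overlap each other in the places found. The GATA letters are printed because the GATA factors were among the genes that were higher in both clones. Capitals mark the motif and each sequence reads 5′ to 3′ on the strand of its gene.
Foxa2, chr2:148045632-148045657, minus strand: gttagccttgAGATAAtattaacttt
Hnf4a, chr2:163506795-163506820, plus strand: agaatcaataAGATAAccgggcgggg
Dab2, chr15:6299600-6299625, plus strand: atttttcttcTGATAAcaggaatagg
The Foxa2 motif starts 183 bases, the Hnf4a motif 52 bases and the Dab2 motif 179 bases before the transcript start of its window. The same Dab2 window also holds AGATAA or its reverse complement, at a place that is not given here. Of the 8 windows, 3 held a GATA motif. Over all 32851 promoter windows, 18.6% held AGATAA or TGATAA. The letters AACAAT and TTTATGG were in 0 of the 8 windows and in 10.7% and 2.75% of all windows. These matches are letters in a window and were not tested as binding sites.

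Signals are given as a percent of the 75th percentile of the array's spots outside the controls. Where a gene has more than 1 probe, the brightest one stands for it. The Feature Extraction software marks each spot as well above background or not, and the lowest signals so marked were 5.16% (parental ES), 4.65% (clone #1), 4.08% (clone #9) and 5.31% (HoxA9-Ct ES). A signal that is not well above background is called dim, and a fold against it is a lower bound, set by that limit or, if higher, by the probe's own signal. At their brightest probe, 8 of the 9 genes were well above background in parental ES, 9 in each Nup98-HoxA9 clone and 4 in HoxA9-Ct ES. Some probes are printed on 10 or more spots. In those with a signal within the range of the 9 genes, the median SD between spots on the log2 scale was 0.21 for parental ES and 0.34 for HoxA9-Ct ES, and 0.10 and 0.08 for clones #1 and #9. This is technical error within an array. The spread between lines of the same construct is known only from the clones.

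**Figure D1:**
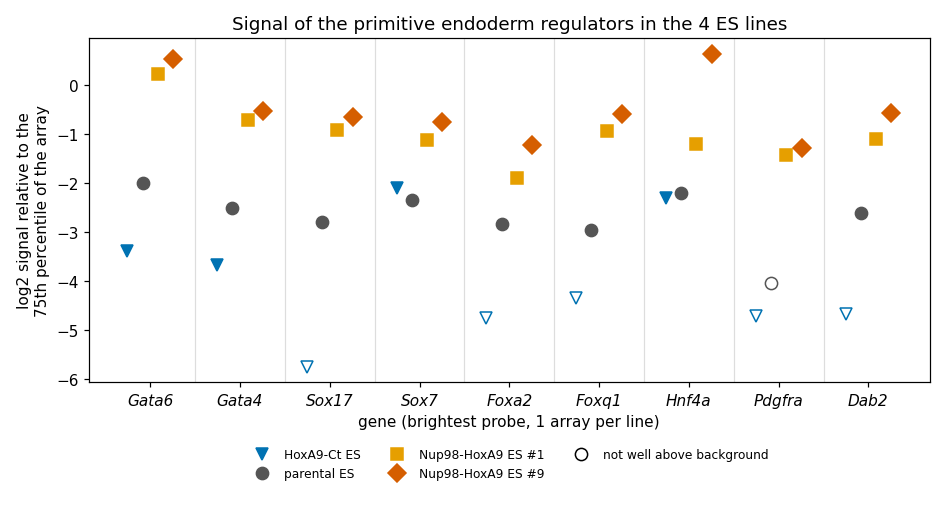
Signal of each gene at its brightest probe in the 4 ES lines, on a log2 axis relative to the 75th percentile of the array; each point is 1 array and hollow points are not well above background. Both Nup98-HoxA9 clones lie above parental ES for all 9 genes, and HoxA9-Ct ES is hollow for 5 of them.

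Gata6 (chromosome 18), the factor at the head of the primitive endoderm program, had a signal of 25.04% in parental ES against 118% in clone #1 and 144% in clone #9, while HoxA9-Ct ES read 9.57%. All 4 signals were well above background, and both clones stood above the other lines. The log2 ratio to parental ES was 2.23 in clone #1 and 2.53 in clone #9, a mean of 2.38 ± 0.21 (SD, n = 2 clones) or 5.21-fold. In HoxA9-Ct ES the log2 ratio to parental ES was -1.39, so the clones were 13.6-fold above HoxA9-Ct ES. On an array of whole cultures, fewer cells that express a gene and less RNA per cell cannot be told apart, which holds for every value below.

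Gata4 (chromosome 14), which GATA6 is known to activate and which binds the same motif, read 17.6% in parental ES against 60.7% in clone #1 and 69.3% in clone #9, and 7.88% for HoxA9-Ct ES. It too was well above background on all 4 arrays. The clones were 3.68-fold above parental ES, with a mean log2 ratio of 1.88 ± 0.13 (SD, n = 2 clones), and 8.23-fold above HoxA9-Ct ES. HoxA9-Ct ES was below parental ES by a log2 ratio of -1.16.

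Sox17 (chromosome 1), a SOX factor that keeps the primitive endoderm program on and is also used in definitive endoderm, was covered by a pair of probes. At the brighter probe the signal was 14.3% in parental ES against 53.1% in clone #1 and 63.3% in clone #9, and HoxA9-Ct ES was dim at 1.87%. The clones lay above parental ES by a mean log2 ratio of 2.01 ± 0.18 (SD, n = 2 clones), or 4.04-fold. HoxA9-Ct ES was at least 2.70-fold below parental ES and at least 10.9-fold below the clones. The other probe read 8.95%, 36.2% and 45.9% in the same order, with HoxA9-Ct ES dim at 3.88%. Its log2 ratios of 2.02 and 2.36 lay in the same direction and close to those of the brighter probe, and HoxA9-Ct ES was at least 1.68-fold below parental ES there.

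Sox7 (chromosome 14), a close relative of Sox17 that is expressed in primitive and parietal endoderm, did not follow the others in HoxA9-Ct ES. It read 19.8% in parental ES and 23.4% in HoxA9-Ct ES, against 46.2% in clone #1 and 59.5% in clone #9, all well above background. The clones were 2.65-fold above parental ES, with a mean log2 ratio of 1.41 ± 0.26 (SD, n = 2 clones). HoxA9-Ct ES was above parental ES by a log2 ratio of 0.24. The median spot SD on that array was 0.34 over the signal range of the 9 genes, of which Sox7 is the top. Over all probes with 10 or more spots it was 0.12. Whether the difference exceeds the spot error at the Sox7 signal is not known. Sox7 was the only 1 of the 9 genes whose HoxA9-Ct signal exceeded the parental one.

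Foxa2 (chromosome 2), a forkhead pioneer factor of endoderm, had a signal of 14.0% in parental ES against 26.9% in clone #1 and 42.8% in clone #9 at its brighter probe, and HoxA9-Ct ES was dim at 3.72%. Clone #1 was 1.92-fold above parental ES, just under the 2-fold line used for the counts below, and clone #9 lay at a log2 ratio of 1.62. HoxA9-Ct ES was at least 2.63-fold below parental ES. The other Foxa2 probe was well above background in clone #9 alone, at 7.34%, and read 4.25% in parental ES, 2.48% in clone #1 and 1.14% in HoxA9-Ct ES. Averaged over both probes, the log2 ratio of clone #1 to parental ES was 0.08, so the clone #1 value rests on 1 probe.

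Foxq1 (chromosome 13), a forkhead factor of epithelia, had a signal of 12.9% in parental ES against 52.3% in clone #1 and 66.5% in clone #9, and was dim in HoxA9-Ct ES at 4.94%. The clones' mean log2 ratio was 2.20 ± 0.24 (SD, n = 2 clones), or 4.59-fold. HoxA9-Ct ES was at least 2.42-fold below parental ES.

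Hnf4a (chromosome 2), a nuclear receptor of visceral endoderm and liver, separated the clones most. Its signal was 21.7% in parental ES and 20.4% in HoxA9-Ct ES, against 43.3% in clone #1 and 156% in clone #9, all well above background. Clone #9 stood apart from the other lines. The log2 ratio to parental ES was 0.99 (1.99-fold) in clone #1 and 2.85 in clone #9, so the mean of 1.92 has an SD of 1.31 between the clones. HoxA9-Ct ES lay within the spot error of parental ES, at a log2 ratio of -0.09.

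Pdgfra (chromosome 5), the receptor for PDGF ligands that marks primitive endoderm cells from the blastocyst on, was the only 1 of the 9 genes that was dim in parental ES, so its folds over that line are lower bounds. Its probe is printed on 10 spots, which gives a technical spread on each array. In parental ES the spots ran from 4.21% through a median of 6.09% to 8.33%, with 3 of 10 well above background. Clone #1 ran from 32.7% through 37.3% to 41.5%, and clone #9 from 33.3% through 42.1% to 44.6%, with 10 of 10 well above background in each. HoxA9-Ct ES ran from 2.22% through 4.10% to 5.99%, with 0 of 10 well above background. No spot of either clone overlapped a spot of the other lines. Clone #1 was at least 6.15-fold and clone #9 at least 6.82-fold above parental ES. Parental and HoxA9-Ct ES were both dim, so no fold is given between them.

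**Figure D2:**
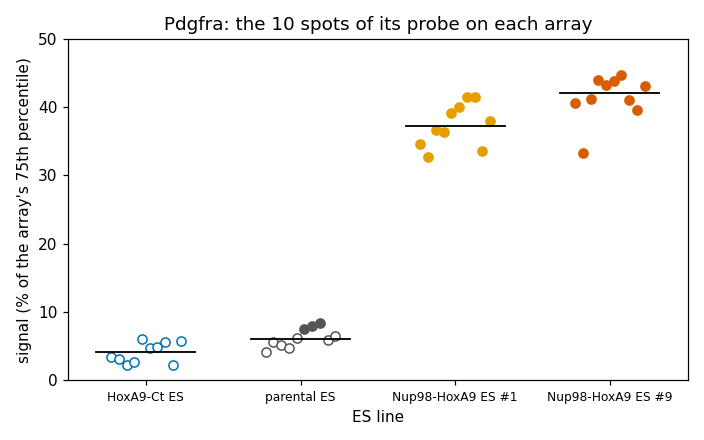
Signal of the 10 spots of the Pdgfra probe on each of the 4 arrays, as a percent of the array's 75th percentile; bars are medians and hollow points are not well above background. The spots of the clones lie between 32.7% and 44.6% and those of the other lines between 2.22% and 8.33%.

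Dab2 (chromosome 15), an adaptor for endocytic cargo that the primitive endoderm needs to keep its position at the surface, had a signal of 16.3% in parental ES against 46.4% in clone #1 and 67.8% in clone #9, and was dim in HoxA9-Ct ES at 3.93%. The log2 ratio to parental ES was 1.51 in clone #1 and 2.05 in clone #9, a mean of 1.78 ± 0.39 (SD, n = 2 clones). HoxA9-Ct ES was at least 3.07-fold below parental ES.

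The signals of the 9 genes were higher in both clones than in parental ES in 9 of 9 genes. The share of all named genes with that sign was not counted. The 2-fold line was passed in both clones by 7 of the 9 genes. It was passed by 1.35% of all 20257 named genes and by 4.38% of the 2033 named genes of the same brightness. In the lower direction it was passed in both clones by 0 of 9 and by 0.79% of all named genes. The remaining genes were Foxa2 and Hnf4a, which lay at 1.92-fold and 1.99-fold in clone #1, and the lowest value past the line was Sox7 in clone #1 at a log2 ratio of 1.22. Since the genes were chosen with these contrasts known, nothing is read from that count or from those that follow for the same genes. Over the 9 genes, clone #1 had a median log2 ratio of 1.79 and clone #9 one of 2.14. Over the 12553 named genes well above background on all 4 arrays it was -0.01 and -0.06.

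HoxA9-Ct ES was more than 2-fold below parental ES at 6 of the 9 genes (Gata6, Gata4, Sox17, Foxa2, Foxq1 and Dab2), against 0.479% of all named genes and 1.48% of those of the same brightness. It was more than 2-fold above parental ES at 0 of 9, against 0.864% of all named genes. The 4 values of Gata6, Gata4, Sox7 and Hnf4a were measured on both sides, and the others were bounds or, for Pdgfra, dim on both sides. Counted with bounds, the median log2 ratio over the 9 genes was -1.28, and it was 0.00 over the named genes well above background on all arrays. With normexp background correction (offset 50), 0 of the 9 genes were more than 2-fold below parental ES in HoxA9-Ct ES, with log2 ratios from -0.48 to 0.16, so all 6 of these differences fall under the line there. All ratios to parental ES share the parental array, so a high or low reading there would move the clones and HoxA9-Ct ES together.

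Directly between the transgenic lines, both clones were more than 2-fold above HoxA9-Ct ES at 8 of the 9 genes, against 1.08% of all named genes and 4.13% of those of the same brightness, and at 5 of 9 with normexp. Sox7 was the exception, at 1.97-fold in clone #1 and 2.54-fold in clone #9. Gata6, Gata4, Sox17, Foxq1 and Dab2 passed the 2-fold line on both sides of parental ES, above it in each clone and below it in HoxA9-Ct ES. Over all named genes, 7 genes (0.0346%) met both limits, and the other two were Aqp8 and Jdp2. Aqp8, a water channel gene, read 16.7% in parental ES, 118% and 104% in clones #1 and #9 and 7.70% in HoxA9-Ct ES. Jdp2, which encodes a factor that dimerizes with JUN and was named here after its values were seen, read 78.0%, 200% and 183% and 24.6% in the same order. Both genes were well above background on all 4 arrays. With normexp, 0 named genes met both limits. Averaged over its probes, Aqp8 lay at a log2 ratio of -0.53 in HoxA9-Ct ES and no longer met them.

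**Figure D3:**
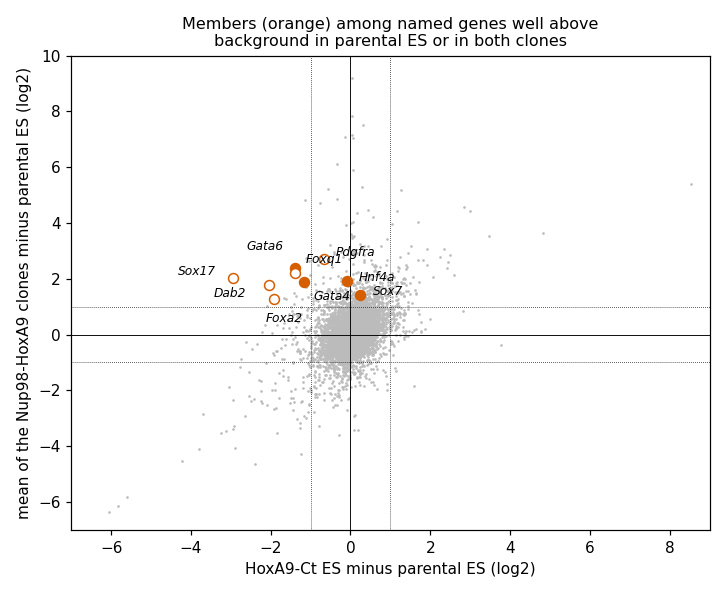
Log2 ratio to parental ES of HoxA9-Ct ES (horizontal) and of the mean of the Nup98-HoxA9 clones (vertical) for named genes well above background in parental ES or in both clones (grey); the 9 genes are orange and hollow where any line was dim, and dotted lines mark 2-fold. The axes share the parental array, and 6 of the 9 genes lie in the upper left corner past both dotted lines, Foxa2 among them with a clone #1 ratio of 0.94.

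Clone #9 had the higher signal of the clones at 9 of 9 genes, a sign that was not counted over all named genes. The median log2 difference was 0.35, beside -0.05 over the named genes well above background on all arrays. Among them Hnf4a alone differed more than 2-fold, at 3.61-fold, and 3.5% of all named genes were that much higher in clone #9. None of the 9 was more than 2-fold lower, as 0.666% of all named genes were. The full order of HoxA9-Ct ES lowest, then parental ES, clone #1 and clone #9 held for 8 of 9 genes, all but Sox7. It held for 4.32% of all named genes and 8.71% of those of the same brightness. For Pdgfra the lower pair was dim and has no firm order. The smallest difference between the clones was that of Pdgfra, at 0.15, followed by Gata4 at 0.19, Sox17 at 0.25 and Gata6 at 0.29. These 4 genes thus differed little between the clones relative to their distance from parental ES. The difference of Dab2 was 0.55. The 508 genes of chromosome 15 had a median difference of 0.39 between the clones, against -0.06 for the other chromosomes, and the part of this shift in the Dab2 value was not tested.

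Genes of trophectoderm, the other extraembryonic lineage of the blastocyst, also differed between the clones. Of 11 genes of that list, 5 were more than 2-fold higher in clone #9 than in clone #1, against 3.5% of all named genes. These were Gata3, Krt7, Krt18, Hand1 and Ascl2, named after their values were seen. Elf5, 1 of the 11, was more than 2-fold lower, against 0.666% of all named genes. The summed signal of the list was 1803% in parental ES and 1681% in HoxA9-Ct ES, against 2498% in clone #1 and 4417% in clone #9. Krt18, a keratin gene, read 938% in clone #1 and 2595% in clone #9, which makes up most of the difference between their sums. Counted with bounds, the list's median log2 ratio to parental ES was 0.40 in clone #1 and 0.95 in clone #9. Of its defining factors, Cdx2 was above background in both clones and dim in the other lines, and Elf5 was above background in clone #1 alone. Whether clone #9 held trophectoderm cells was not tested. This list and the lists below were drawn up with earlier results of these data known, so their counts and limma calls are a description.

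Of the nearest relatives of the 9 genes by family (Gata1, Gata2, Gata3, Gata5, Sox18, Foxa1, Foxa3, Hnf4g, Pdgfrb and Dab1), 0 of 10 passed the 2-fold line in both clones in either direction. This is close to the shares of 1.35% upward and 0.79% downward over all named genes, so nothing particular to the relatives is read from it. Gata1, Gata2 and Gata5, which are used in blood and heart, were above background in every line with log2 ratios from -0.06 to 0.20 in clone #1 and from -0.32 to 0.21 in clone #9. Foxa1 lay at -0.71 in clone #1 and 1.23 in clone #9, and Foxa3 at -0.63 and -0.18. Pdgfrb, the receptor paralog of Pdgfra, read higher in both clones than in parental ES, at 0.56 and 1.38. Dab1, the neuronal adaptor, lay at 0.13 and -0.47. Gata3 was above background in clone #9 alone, at least 1.94-fold above parental ES, and Sox18 and Hnf4g were dim in every line.

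Of the ligands, receptors and ERK pathway genes that feed into primitive endoderm formation, 1 of 16 passed the 2-fold line upward and 1 of 16 downward in both clones. The higher gene was Fgfr3, an FGF receptor, at log2 ratios of 1.06 and 2.16, with an adjusted p of 0.17 in limma. Pdgfc, which encodes a ligand of PDGFRA, fell in the clones to 29.4% and 24.3% from 176% in parental ES, and was 65.2% in HoxA9-Ct ES. Its log2 ratios were -2.58 and -2.85 in the clones (limma, adjusted p = 0.000241) and -1.43 in HoxA9-Ct ES. The receptor was thus higher and this ligand lower in both clones. Pdgfa, the other ligand gene on the list, lay at 0.01 and -0.49. Fgf4, the ligand made by ES cells, lay at -0.10 and -0.06, Fgfr1 at 0.54 and 0.32 and Fgfr2 at 0.37 and 0.52.

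Of 20 other genes of primitive endoderm, 5 passed the 2-fold line upward in both clones, against 1.35% of all named genes, and 0 passed it downward, against 0.79%. As the list was drawn up with earlier results of these data known, its counts and limma calls are no independent support. Counted with bounds, and with 0 where both lines compared were dim, the list's median log2 ratio was 0.28 in clone #1 and 0.69 in clone #9. Aqp8 lay at 2.82 and 2.64, the X-linked homeobox gene Rhox5 at 2.07 and 2.51, the basement membrane collagen genes Col4a1 and Col4a2 at 1.45 and 1.65 and at 1.36 and 1.76, and the collagen chaperone gene Serpinh1, named after its values were seen, at 1.05 and 1.43. By limma, Aqp8 and Rhox5 rose against parental ES (adjusted p = 0.000219 and 0.00502), and 7 of 20 were higher in the clones than in HoxA9-Ct ES, while 0.781% and 0.673% of all 55562 probes were called higher in these comparisons. Against parental ES, 0.625% of probes were called lower. HoxA9-Ct ES was more than 2-fold below parental ES at 5 of 20 (0.479% of all named genes). These were Aqp8, Cubn (an endocytic receptor), Pth1r (a hormone receptor), Fst (an activin antagonist) and Lama1 (a laminin chain). The last 4 were named after their values were seen. All 5 lay just past the line, at log2 ratios from -1.03 (Fst) to -1.12 (Aqp8), with 1 array per line. When limma compared these lines, it called none of the 5 lower. The list's median log2 ratio in HoxA9-Ct ES, with bounds, was -0.20. Other matrix genes of the parietal endoderm, also named after their values were seen, did not pass the line. Sparc lay at -0.06 and 0.23, Lamb1 at -0.44 and 0.04, Lamc1 at 0.29 and 0.37, Nid2 at -0.33 and -0.44 and Lama1 at 0.18 and 0.06 in clones #1 and #9. Fst lay at 0.28 and 0.03, and the endocytic receptor gene Lrp2 at 0.03 and -0.98.

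Of 15 genes of the later, visceral endoderm, 0 passed the 2-fold line upward in both clones and 1 downward, beside 1.35% and 0.79% of all named genes. In all, 7 of the 15 (Afp, Ttr, Apoa1, Apoa4, Apob, Fgb and Cer1, the secreted products that define the tissue among them) were dim in every line and show no direction. Spink1, a trypsin inhibitor gene, fell from 1594% in parental ES to 153% and 144% in clones #1 and #9, while HoxA9-Ct ES read 1832% (log2 ratios of -3.38 and -3.47, limma, adjusted p = 3.43e-07). Rbp4, which encodes a retinol carrier and was named after its values were seen, lay at 0.55 in clone #1 and 1.48 in clone #9, and at 1.03 in HoxA9-Ct ES. Counted with bounds, the list's median log2 ratio was 0.00 in each clone. Cubn and Amn, which encode the endocytic receptor complex of visceral endoderm and were counted among the other primitive endoderm genes, lay at 0.28 and 0.99 and at 0.75 and 1.64, the latter named after its values were seen.

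All 16 pluripotency genes were well above background in every line, Pou5f1, Nanog, Sox2, Esrrb and Zfp42 among them. More than 2-fold apart from parental ES in both clones were 0 of 16. This is close to the shares of 1.35% upward and 0.79% downward over all named genes, so nothing particular to these genes is read from the count. Nanog lay at 0.20 and -0.40 in clones #1 and #9 and at -0.20 in HoxA9-Ct ES, and Pou5f1 at -0.07, -0.28 and -0.12. The list's median log2 ratio was 0.04 and -0.14 in the clones and 0.03 in HoxA9-Ct ES, and limma called 0 of 16 against parental ES.

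Sox17, Foxa2, Gata4 and Gata6 are also used in definitive endoderm and heart. Of 10 mesendoderm and definitive endoderm genes, 0 were past 2-fold in both clones, and Mixl1, T, Lhx1, Mesp1 and Cer1 were dim in every line. Over all named genes, 1.35% passed upward and 0.79% downward. Nothing is therefore read from the counts of 0 in this list or in the heart and fibroblast lists below. Of 11 heart and lateral mesoderm genes, 0 were past 2-fold in both clones, and Tbx5, Hand2, Mef2c, Isl1 and Tbx20 were dim in every line. In that list, clone #9 was more than 2-fold above clone #1 at 2 of 11 genes, against 3.5% of all named genes. These were Hand1 (at least 3.49-fold) and Tnnt2 (at least 2.14-fold). Of 11 fibroblast genes, 0 were past 2-fold in both clones, and Lum, Dcn, Postn and Fap were dim in every line. Here too clone #9 was more than 2-fold above clone #1 at 2 of 11 genes, against the same 3.5%. These were the collagen genes Col1a1 (4.31-fold) and Col1a2 (3.75-fold). Hand1, Tnnt2, Col1a1 and Col1a2 were named after their values were seen. Nothing particular to the heart or fibroblast list is read from these counts. In the trophectoderm list 1 of 11 was higher in both clones, the keratin gene Krt8, at log2 ratios of 1.94 and 2.90. Limma called Krt8, Cdx2 and Elf5 higher in the clones than in parental ES. For Cdx2 and Elf5 it used dim parental readings of 1.11% and 1.47%. With bounds, Cdx2 was at least 1.47-fold above parental ES in clone #1 and at least 2.26-fold in clone #9. Elf5 was at least 2.26-fold above parental ES in clone #1, and it was dim in both parental ES and clone #9.

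**Figure D4:**
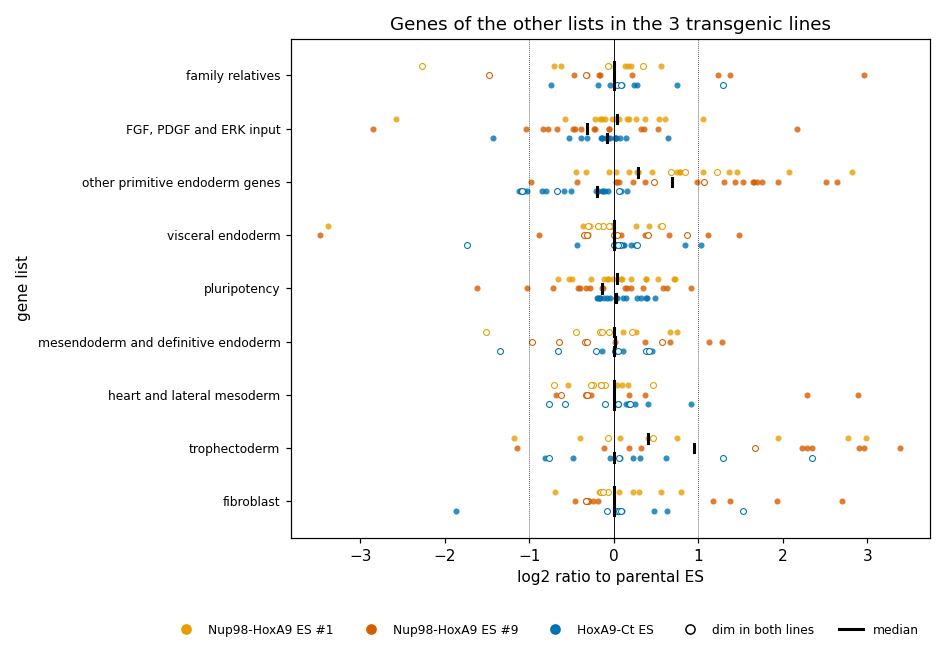
Log2 ratio to parental ES of the genes of 9 lists in the 2 Nup98-HoxA9 clones and HoxA9-Ct ES; each point is 1 gene, hollow points are dim in both lines compared, black bars are list medians counted with bounds, with 0 for genes dim in both lines, and dotted lines mark 2-fold. In the list of other primitive endoderm genes the medians are 0.28 and 0.69 in the clones and -0.20 in HoxA9-Ct ES, and in the pluripotency list they are 0.04, -0.14 and 0.03.

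The limma fit had 1 residual degree of freedom, from the pair of clones, and an infinite estimated prior degree of freedom. Every probe was therefore tested with the same prior SD of 0.454 on the log2 scale, its own spread between the clones had no weight, and the lines with a single array were taken to vary alike. With quantile normalization, or without the probes that were dim on all arrays, limma called 0 probes in every comparison, so each call above is lost there.

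By distance over the 3 log2 ratios to parental ES, the genes most like each of the 4 genes measured on all arrays were named among 12553 genes. Nearest to Gata6 were Selenop, Aqp8, Gata4, Gdpd5 and Exoc3l4, at distances from 0.59 to 1.03, with Gata4 at 0.75. Nearest to Gata4 were Ifit1bl2, Vldlr, Col4a2, Dpp4 and Dcstamp, at 0.45 to 0.73. Both sets were farther away than those of Sox7, which were Cd47, Cebpe, Bicc1, Ifngr1 and Rhbg at 0.08 to 0.13. Nearest to Hnf4a were Ank, Sct, Galnt16, Ly6k and Myom3, at 0.37 to 0.49. These are descriptions over 3 ratios that share the parental array.

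Over the whole series, the arrays were alike in brightness, with 75th percentiles of the processed signal from 209 to 253 and 49.9% to 53.0% of spots well above background, the most in clone #9. No array was saturated at any spot. The 2 Hoxa9 probes read 115% to 162% in the clones and were dim in parental and HoxA9-Ct ES. Their place relative to the HoxA9 part of the transgenes is not given in the sources used here, so they check no label.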

How the data were processed

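Total RNA of each of the 4 ES lines was labelled with Cy3 and hybridised to a SurePrint G3 Mouse GE 8×60K array, 1 array per line. The authors extracted the images with Feature Extraction 10.10.1.1. The deposited scanner files hold intensity values per spot (a processed signal that is background-subtracted and detrended within the array, and the median pixel of spot and local background) and flags. The authors' series matrix holds the same processed intensity times 1 constant per array (3.19 to 3.63), to within 0.643% at 99% of spots, and how it was chosen is not stated. The array annotation uses mm9. Symbols and chromosomes came from RefSeq through transcript accessions.

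Here, the log2 of the deposited processed intensity was set against the 75th percentile of the 59305 spots outside the controls, and spots of a probe were averaged without outlier-flagged ones. A probe counted as well above background where most of its spots did. Genes past 2-fold had to pass in both clones, with bounds where a line was dim. Limma 3.58.1 in R 4.3.3 (lmFit, eBayes, 3 groups, Benjamini-Hochberg over 55562 probes, adjusted p of 0.05, prior SD 0.454, infinite prior degrees of freedom) tested all probes. It was first tried on simulated arrays with the same SD for every probe, a setting that cannot show how it behaves on these arrays. Python 3.11.15, pandas 2.3.3 and numpy 2.4.6 gave the counts.

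The 9 genes, the gene lists, the tests and the alternatives were chosen with earlier results of these data known. Single genes named are the 9, list genes past 2-fold (up to 4 per list by size), Nanog, Pou5f1, Fgf4, Fgfr1, Fgfr2, Pdgfa, the family relatives, and the 5 genes nearest by ratios, and others are said to have been named after their values were seen. Genes of the same brightness are those whose mean signal lies within the range of the 9. The normexp alternative used the median spot signal, as the files used here hold no mean signal. The number of arrays limits the precision.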

Additional observations from a re-analysis of the deposited data

Results flagged for a closer look

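At 7 genes, both Nup98-HoxA9 clones were more than 2-fold above parental ES while HoxA9-Ct ES was more than 2-fold below it. The clones lay above parental ES by a mean log2 ratio of 2.38 at Gata6, 1.88 at Gata4, 2.01 at Sox17, 2.20 at Foxq1, 1.78 at Dab2, 2.73 at Aqp8 and 1.29 at Jdp2. No test of the difference between the constructs is given for these 7 genes. The first 5 were chosen with their values known, and Jdp2 was named after its values were seen. Aqp8 entered this group by meeting both limits on these same arrays. With normexp background correction the pattern is lost at all 7 genes, with HoxA9-Ct log2 ratios of -0.45 at Gata6, -0.28 at Gata4, -0.44 at Sox17, -0.21 at Foxq1, -0.48 at Dab2 and -0.29 at Aqp8. At Jdp2 the ratio is -1.07, still past 2-fold, and the clones are not both past it. HoxA9-Ct ES was dim at Sox17, Foxq1 and Dab2, where its distance from parental ES is a lower bound.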

How the results depend on the processing

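Of 315 values of single genes of the set recomputed under the alternatives, 277 moved by less than the SD between the clones, 38 moved by more and 0 changed sign. Many could not move. Keeping outlier spots left the values as they were, and averaging over probes can change only the 2 genes with a pair of probes. Normexp moved 8 of 9 ratios to parental ES in each clone and 7 of 9 in HoxA9-Ct ES. That SD is no spread of HoxA9-Ct ES. It was wide for Hnf4a, whose clone #9 ratio went from 2.85 to 1.95 without counting as moved. With normexp (offset 50), which adds 50 units to parental signals of 13.9 to 57.4 units at these genes, the median over the 9 genes of the clones' mean log2 ratio was 0.98 (1.92 in the report), that of HoxA9-Ct ES was -0.28 (-1.38, without bounds), 3 of 9 genes were past 2-fold in both clones and 0 were more than 2-fold below parental ES in HoxA9-Ct ES (6 in the report). The number of list genes past the line in both clones was 15 at 1.5-fold and 5 at 3-fold (9 at 2-fold). Leaving out each clone gave 7 to 9 of the 9 genes, a median of 1.79 to 2.14, and 11 to 28 list genes, the 28 without clone #1.

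Limma called 781 probes for Nup98-HoxA9 against parental ES, 225 for HoxA9-Ct against parental ES and 756 for Nup98-HoxA9 against HoxA9-Ct ES. In that order, the series matrix gave 140, 18 and 133. Quantile normalization gave 0, 0 and 0, with 5104, 4185 and 5394 probes at an unadjusted p under 0.05, and leaving out the probes that were dim on all 4 arrays gave 0, 0 and 0, with 2224, 992 and 2136. Trend and robust gave 1243 and 1284 for the comparisons with the clones. For HoxA9-Ct against parental ES, the floor gave 125 and normexp 73. The cause was not tested. Without a clone, limma has no residual degree of freedom and was not run. No paired analysis was possible because the groups share fewer than 2 replicate numbers. Scaling by the median of each array moved the median of the genes well above background on all arrays in clone #9 from -0.06 to -0.13.

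Each ratio rests on 1 parental array and on 1 spot for 8 of the 9 genes, at signals where HoxA9-Ct ES was dim for 5.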
